A study of Mus musculus with 6 samples.

Results

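TP63, SOX2, DST and KRT15, 4 genes of basal squamous identity, were followed in KYSE30, a human esophageal squamous cell carcinoma line. They were chosen by name: of 6 genes named (the others were KRT5 and KRT14), 4 were among the 4195 genes of the deposited table. KRT5 and KRT14 have no value here, which does not say that the cells lack them. The cells carried the WT genotype label in every sample. They were either left as Control or given 100 uM ACh (acetylcholine, the transmitter of cholinergic nerves, sensed by muscarinic and nicotinic receptors), and both groups are labelled 4 h. Each group had 3 libraries, made from total RNA with a SMARTer mRNA-seq kit. A single cell line was used, and what the Control cells received in place of ACh is not given in the sources used here. The study asked which genes change in expression when the cells are stimulated.

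In stratified squamous epithelium, such as that of the esophagus, the basal layer holds the dividing cells, which sit on a basement membrane and supply the layers above. The transcription factor p63, encoded by TP63, maintains this layer, and SOX2, a transcription factor of the foregut, is expressed with it in the esophagus. Both genes lie on the long arm of chromosome 3, in a region often amplified in squamous carcinomas. DST encodes dystonin, whose epithelial form ties keratin filaments to hemidesmosomes, the junctions that anchor basal cells to the basement membrane. KRT15 is a type I keratin of basal cells, and KRT5 and KRT14 form the main keratin pair of that layer.

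Values are normalised read counts: reads per gene, divided by the authors by one factor per library. The table lists only genes whose unadjusted p in the authors' comparison of these same libraries was at most 0.05. The 4 genes were therefore in the table because they differed between the groups, and the tests below describe that difference again without independent support for it. Per library the listed genes added up to 10519515 to 11468978 normalised reads, which is not the sequencing depth, and the depth is unknown. The labels do not say whether replicates were separate cultures, so p-values reflect only the spread among these libraries, which may be technical.

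The 4 genes split by direction. TP63 and DST were higher in ACh by 16.9% and 16.0% of the Control mean, and SOX2 and KRT15 were lower, with percent changes of -13.2 and -10.8. The verbs rose and fell are used here for genes with an adjusted p under 0.05 both in limma, fitted over all listed genes, and in the authors' deposited table. By this rule 4 of the 4 genes were called, 2 in each direction, where 63.8% of all listed genes were called, 28.8% higher and 35.0% lower. The groups did not overlap for 3 of the 4, where 93.0% of listed genes had groups that did not overlap. These counts are read against a table selected for differences and say nothing particular about the 4 genes. Their changes were of ordinary size for it: between 32.3% of listed genes (for KRT15) and 58.2% (for TP63) had a smaller absolute log2 fold change. In RNA from a whole culture, fewer cells of one type and less RNA per cell cannot be told apart.

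**Figure D1:**
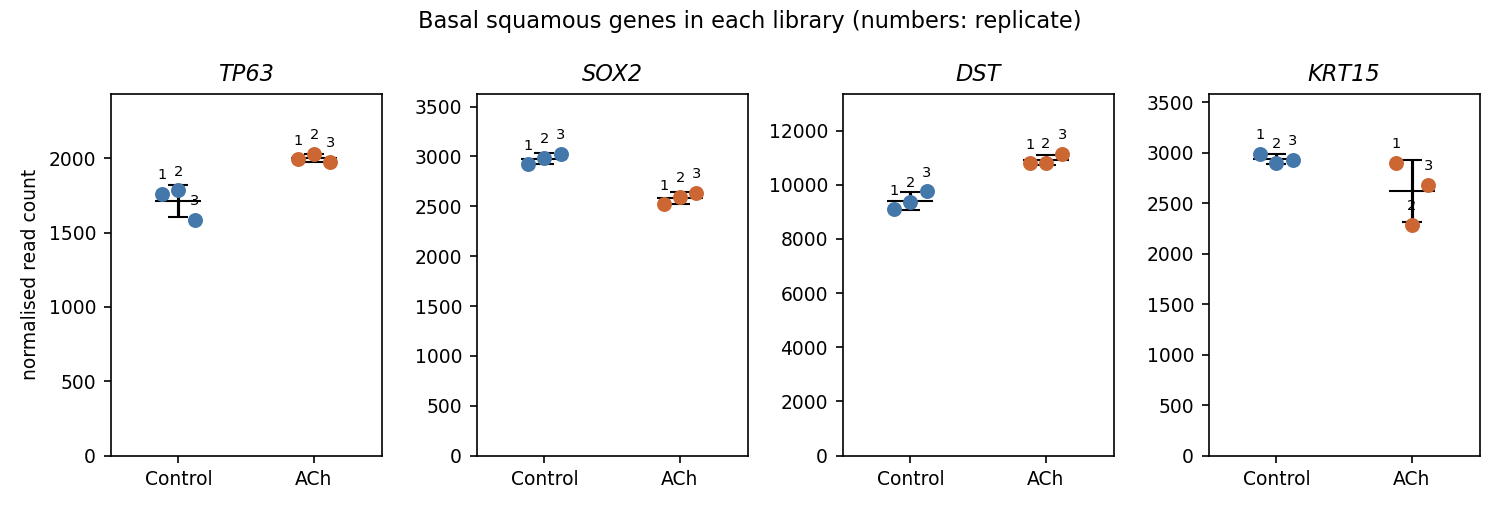
Normalised read count (y axis, starting at 0) of each of the 4 genes in the 3 Control and 3 ACh libraries; points are libraries with their replicate number, the horizontal line is the group mean and the bars its SD. TP63 and DST lie higher and SOX2 lower in every ACh library than in any Control library, while ACh replicate 1 of KRT15 lies at the Control level.

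TP63, the regulator of basal squamous cells (ENSG00000073282, chromosome 3, 189631416 to 189897279 on the plus strand), had normalised counts of 1762, 1784 and 1587 in Control replicates 1 to 3. In ACh replicates 1 to 3 they were 1993, 2030 and 1977. Every ACh library lay above every Control library, and Control replicate 3 stood below the other Control libraries. The means were 1711 ± 108 in Control and 2000 ± 27.1 in ACh (SD, n = 3 each). TP63 rose by 0.23 on the log2 scale (standard error 0.04, limma adjusted p = 0.000225), and its adjusted p in the authors' deposited table was 0.000772. Once each library's trend on GC content was removed, TP63 stood at 0.04 (limma adjusted p = 0.633) and the call was lost. An exact two-sided permutation test gave p = 0.1, the smallest that 3 against 3 libraries allow. TP63 makes transcripts with and without the amino-terminal activation domain, and values per gene do not separate them.

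SOX2, the foregut factor (ENSG00000181449, chromosome 3, 181711924 to 181714436 on the plus strand), had normalised counts of 2920, 2985 and 3026 in Control. In ACh they were 2521, 2593 and 2634. The highest ACh library was below the lowest Control library by 286 normalised reads, and the replicates of each group lay close together. The means were 2977 ± 53.5 and 2583 ± 57.1 (SD, n = 3 each). SOX2 fell by 0.20 on the log2 scale (standard error 0.03, limma adjusted p = 6.74e-05), and its adjusted p in the authors' deposited table was 7.79e-05. The exact two-sided permutation p was 0.1 here too. SOX2 is a gene without introns that lies inside the long non-coding gene SOX2-OT, and no source states stranded counting, so reads of the overlapping transcripts cannot be told apart.

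DST, which encodes the hemidesmosome linker dystonin (ENSG00000151914, chromosome 6, 56457987 to 56954628 on the minus strand), had the highest counts of the 4 genes and the longest gene model. Control replicates 1 to 3 had normalised counts of 9092, 9380 and 9759, and ACh replicates 1 to 3 had 10795, 10805 and 11141. The groups were separated by 1036 normalised reads. The means were 9410 ± 334 and 10914 ± 197 (SD, n = 3 each), and DST rose by 0.21 on the log2 scale (standard error 0.03, limma adjusted p = 3.67e-05). The authors' deposited table gave an adjusted p of 2.27e-08, and the exact two-sided permutation p was 0.1. The gene makes epithelial, neuronal and muscle forms of dystonin from different start sites, which a value per gene does not separate.

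KRT15, the basal type I keratin (ENSG00000171346, chromosome 17, 41513743 to 41522529 on the minus strand), had the least even values. Control replicates 1 to 3 had normalised counts of 2990, 2899 and 2931, and ACh replicates 1 to 3 had 2900, 2289 and 2681. ACh replicate 1 was 0.681 normalised reads above the lowest Control library, so the groups overlapped, and ACh replicate 2 was the lowest of all. The SD was 1.57% of the mean in Control and 11.8% in ACh. The means were 2940 ± 46.2 and 2623 ± 309 (SD, n = 3 each). KRT15 fell by 0.17 on the log2 scale (standard error 0.05, limma adjusted p = 0.00713), and the authors' deposited table gave an adjusted p of 0.0417. The exact two-sided permutation p was 0.2. Without ACh replicate 2 the log2 fold change was -0.0763 (limma adjusted p = 0.0762) and the call was lost. Equal library totals over the listed genes also ended it, with a log2 fold change of -0.0911 (limma adjusted p = 0.132), as did removal of the GC trend, which left it at 0.01 (limma adjusted p = 0.962).

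Levels of different genes were compared per kilobase of the gene length given in the file, whose derivation is not stated. The order rests on these lengths and is uncertain. SOX2 and KRT15 had near-equal mean counts in Control, 2977 and 2940, but lengths of 2513 and 7069 bases. The length given for KRT15 covers most of its span of 8787 bases. In Control, SOX2 stood highest at 1185 ± 21.3 normalised reads per kilobase, followed by KRT15 at 416 ± 6.54, TP63 at 230 ± 14.5 and DST at 222 ± 7.89 (SD, n = 3). With the given lengths of 7454 and 42341 bases, TP63 and DST did not differ beyond their spread in Control. That spread does not include any error in the lengths. In ACh the order was the same, with SOX2 at 1028 ± 22.7, KRT15 at 371 ± 43.8, TP63 at 268 ± 3.64 and DST at 258 ± 4.65 (SD, n = 3). There the ranges of TP63 and DST did not overlap, the SD of TP63 being smaller than in Control. The ratio of TP63 to DST was nearly the same in both groups, with a log2 difference of 0.01.

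Because a library's scaling factor cancels in a ratio of 2 genes, the balance among the 4 genes was read within each library. The ratio of TP63 to SOX2 was 0.604, 0.598 and 0.525 in Control and 0.791, 0.783 and 0.751 in ACh. Every ACh library had relatively more TP63 than any Control library, and the mean log2 ratio differed by 0.43, a factor of 1.35. The ratio of SOX2 to DST was the most even of the 6 pairs, at 0.321, 0.318 and 0.310 in Control and 0.234, 0.240 and 0.237 in ACh, a log2 difference of -0.42. TP63 and DST kept nearly the same ratio, with a log2 difference of 0.01 and overlapping groups. SOX2 over KRT15 had a mean log2 difference of -0.03 and overlapping groups, but it was not kept evenly. The ratio was 0.977, 1.030 and 1.032 in Control and 0.869, 1.133 and 0.982 in ACh. TP63 over KRT15 and DST over KRT15 differed by 0.40 and 0.39 on the log2 scale, and the groups did not overlap in either pair. The ratios are given as a description with no test, since each gene entered the table by its difference between the groups.

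**Figure D2:**
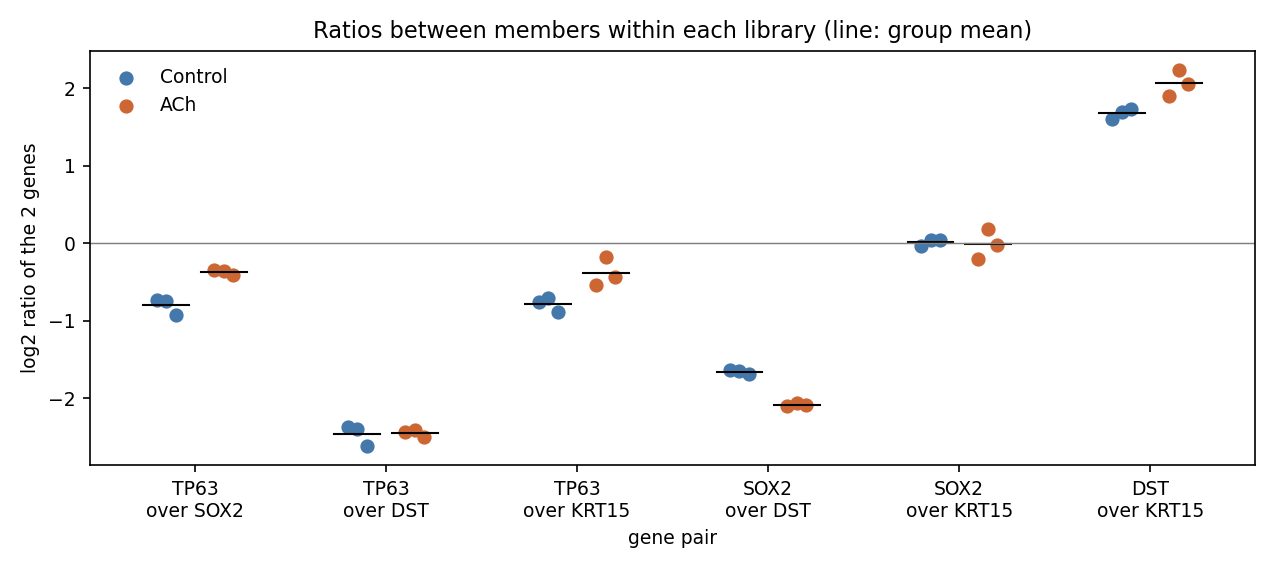
Log2 ratio of each pair of the 4 genes (y axis) in each library, for Control and ACh; points are libraries and lines group means. In the 4 pairs that join a higher with a lower gene the groups do not overlap, whereas for TP63 over DST and SOX2 over KRT15 they do.

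Across the listed genes the direction of change went with base composition, and the 4 genes followed that order. The GC content of the mouse transcript of the same gene, used because no human sequence was at hand, was 44.2% for TP63, 49.5% for DST, 50.5% for SOX2 and 55.3% for KRT15. Among listed genes with a GC content from 42% to under 46%, 95.9% of 703 were higher in ACh, and from 53% to under 57%, 4.45% of 719 were. Between 48% and 52%, where DST and SOX2 lie, 56.3% of 437 were higher. TP63 and KRT15 thus moved with nearly all genes of their composition, while DST and SOX2 lay where listed genes went both ways.

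**Figure D3:**
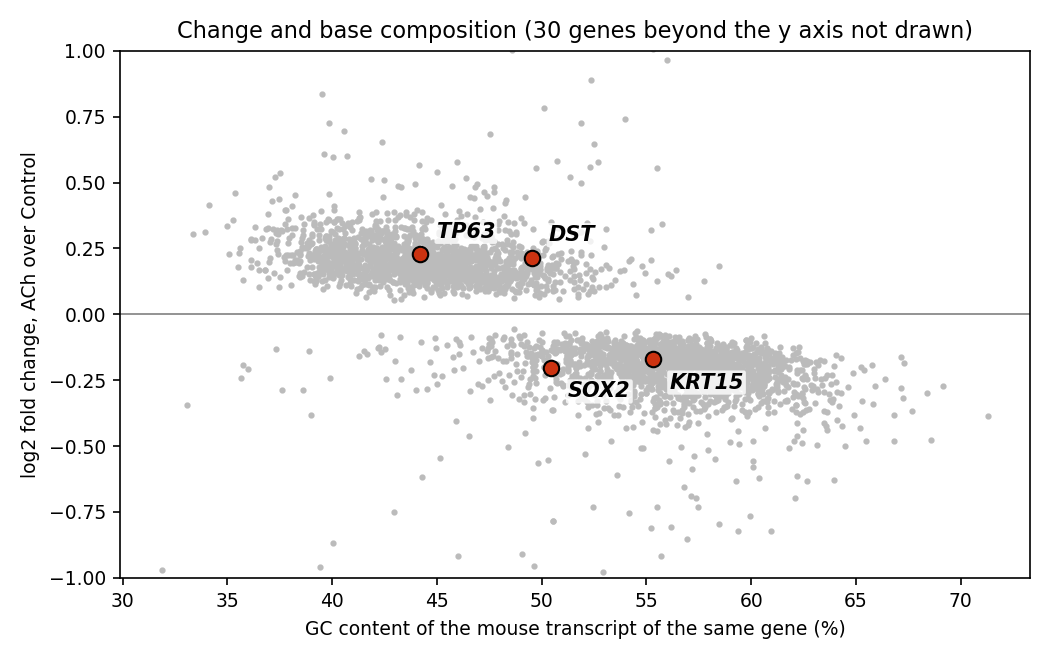
Log2 fold change of ACh over Control (y axis) against the GC content of the mouse transcript of the same gene (x axis, %) for 3647 listed genes (grey); 30 more lie beyond the y axis. TP63 (44.2%) and KRT15 (55.3%) lie within the dense bands of higher and lower genes, and DST (49.5%) and SOX2 (50.5%) lie where the bands meet.

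After the trend on GC content was taken out of each library, DST and SOX2 kept their calls and TP63 and KRT15 did not. The log2 fold change of DST was then 0.17 (standard error 0.03, limma adjusted p = 0.000441) and that of SOX2 was -0.20 (standard error 0.03, limma adjusted p = 0.000144). The 95% interval of TP63 ran from -0.05 to 0.12, and its Control libraries then spanned the ACh libraries. That of KRT15 ran from -0.10 to 0.11. The trend was fitted on the listed genes alone, which were selected for differing between the groups. From 48% to under 52% GC these went both ways, and removal of the trend moved DST and SOX2 little, from 0.21 and -0.20. The kept calls of DST and SOX2 therefore do not set them apart from TP63 and KRT15. Of 3677 genes with a GC value, 16.6% passed limma after the trend was removed, 7.67% higher and 8.95% lower. The log2 difference of the SOX2 to DST ratio was then -0.37, with groups that did not overlap, and that of the TP63 to SOX2 ratio 0.23, also without overlap. The ratios of TP63 and DST to KRT15 lost their separation: the log2 differences were 0.03 and 0.17, and the groups overlapped in both pairs.

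The genes differ in length as well, from 2513 bases for SOX2 to 42341 for DST in the file, and over all listed genes longer genes tended to be higher in ACh (Spearman's rho 0.34 across genes, which are not independent replicates and share these libraries). With the trends on GC content and length removed together, a setting chosen after seeing the data, DST stood at 0.12 (limma adjusted p = 0.00384) and SOX2 at -0.13 (limma adjusted p = 0.00571). TP63 and KRT15 stood at 0.02 and -0.03 (limma adjusted p = 0.743 and 0.728).

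**Figure D4:**
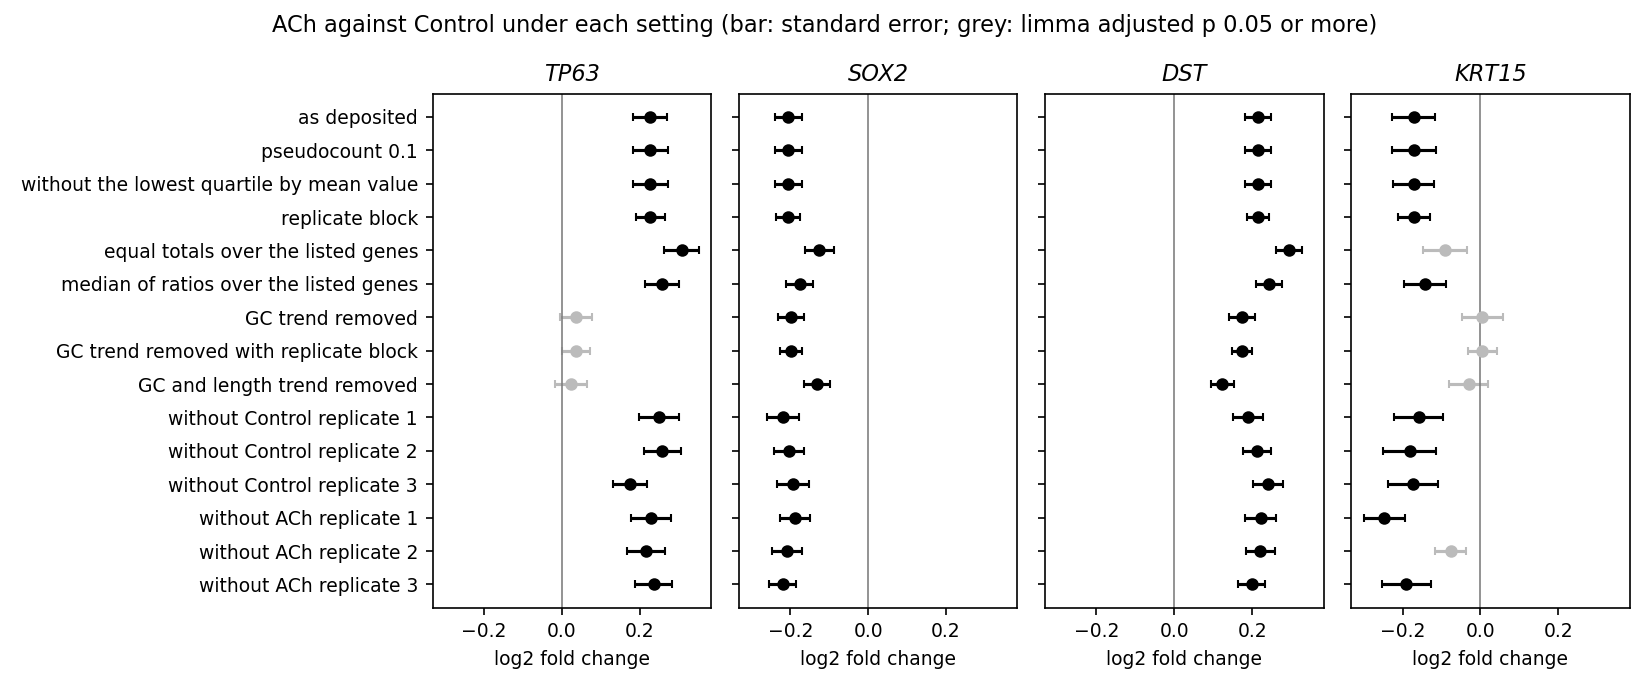
Log2 fold change of ACh over Control (x axis) of each gene under each processing setting (y axis); bars are standard errors and grey points have a limma adjusted p of 0.05 or more. SOX2 and DST are black in every row shown, TP63 is grey where the GC trend was removed (0.04), and KRT15 is grey there, with equal totals (-0.0911) and without ACh replicate 2 (-0.0763).

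For each gene the listed genes with the most similar pattern were taken, by Pearson's r of log2(value + 1) over the 6 libraries, leaving out genes whose mean was under the table's median. For TP63 these were ATF7IP, UBE2K and NCBP1 (r = 0.998, 0.991 and 0.987). For SOX2 they were RABL6, CNOT3 and RHOB (r = 0.997, 0.996 and 0.995), and for DST they were VPS13B, UPF2 and USP33 (r = 0.997, 0.996 and 0.992). KRT15 had no partner as close, the nearest being SHMT2, LAMP1 and CALB2 (r = 0.947, 0.944 and 0.938). Such values of r are common in a table of genes chosen because the groups differed: 263 of 2097 genes exceeded 0.95 with SOX2, 94 with DST and 60 with TP63.

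Of 18 basal transcription factors, TP63 and SOX2 among them, 10 were listed, of which 4 rose and 2 fell. The 6 called of 10 stand against 63.8% of all listed genes. With equal totals 4 rose and SOX2 alone fell. The 10 genes had a median log2 fold change of 0.16 against -0.10 over all listed genes. With the GC trend removed their median was 0.05, against 0.01 for all genes with a GC value. Besides TP63, HMGA2, a chromatin architectural factor, rose by 0.24 on the log2 scale, with means of 5678 ± 213 in Control and 6723 ± 340 in ACh (SD, n = 3). FOSL1, an AP-1 subunit, and NFE2L2, the regulator of the oxidative stress defence, rose by 0.18 and 0.14. SOX15, the one factor besides SOX2 that fell, did so by 0.16, but stood at 0.08 with the GC trend removed (limma adjusted p = 0.275). BNC1 and TBX18 had log2 fold changes of 0.24 and 0.33, and PITX1 and TFAP2C of -0.34 and -0.12, and none of these 4 passed the authors' adjusted p. In the p53 and SOX family 7 of 22 genes were listed, of which TP63 rose and SOX2, SOX12, SOX13 and SOX15 fell. With equal totals 1 rose and 2 fell. With the GC trend removed the direction of SOX13 turned, to 0.13 (limma adjusted p = 0.0135), and SOX2 was the one gene of the family still called in its own direction.

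Among the partners of dystonin at the hemidesmosome and in the basement membrane, 18 of 29 genes were listed, and 9 rose and 5 fell (9 and 3 with equal totals). This is 77.8% called, against 63.8% of all listed genes (28.8% higher and 35.0% lower). ITGA6, the integrin alpha chain of the hemidesmosome, rose by 0.15, with means of 12758 ± 41.6 in Control and 14125 ± 366 in ACh (SD, n = 3), whereas its partner chain ITGB4 had a log2 fold change of -0.09 and fell. With the GC trend removed this contrast turned: ITGB4 was called higher, at 0.16 (limma adjusted p = 0.00498), and ITGA6, at 0.08, was not called (limma adjusted p = 0.103). LAMA3, a laminin chain of the basement membrane, rose by 0.10, and LAMB3, another laminin chain, had a log2 fold change of -0.08 and did not pass both tests. The integrin chains ITGB6 and ITGA2 rose by 0.23 each, and COL4A2, a chain of basement membrane collagen, and CD151, a tetraspanin, fell by 0.19 and 0.18, and none of these 4 kept its call with the GC trend removed. COL17A1, the transmembrane collagen to which dystonin binds, had a log2 fold change of 0.07 (limma adjusted p = 0.0676). Of the plakins, the family of dystonin, 6 of 7 were listed. DST and MACF1 rose, by 0.21 and 0.13, EVPL and PPL, plakins of the cornified envelope, fell by 0.26 and 0.15, and PLEC and DSP (-0.15 and 0.08) did not pass both tests. With equal totals 2 plakins rose and 1 fell, and with the GC trend removed DST alone kept its call. DSP then passed limma as higher too, at 0.15 (limma adjusted p = 0.00113).

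Genes reported elsewhere as p63 targets were listed in 18 of 34 cases, and 8 rose and 4 fell, which is 66.7% called against 63.8% of all listed genes. Their median log2 fold change was 0.11, or 0.0047 with the GC trend removed, against 0.0088 for all genes with a GC value. IGFBP3, which p63 is known to repress, rose by 0.65 and HBP1 by 0.28. FASN, the fatty acid synthase, and SFN, which encodes the 14-3-3 sigma protein, fell by 0.27 and 0.26. CLDN1, a tight junction gene that lies 408422 bases from TP63, rose by 0.21. Of these 5 genes IGFBP3 alone was still called with the GC trend removed. The listed neighbours of TP63 within 1000000 bases also included IL1RAP and LPP, which rose by 0.33 and 0.27, and the one listed neighbour of SOX2 was FXR1, which rose by 0.16. On chromosome 3 from 160000000 to its end, 55 genes were listed, of which 26 rose and 15 fell (26 and 9 with equal totals), so that 74.5% were called against 63.8% of all listed genes. Their median GC content was 43.8%, and their median log2 fold change was 0.17, or -0.01 with the GC trend removed.

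The basal label was checked against markers of other epithelial states. Of 9 basal markers, TP63, SOX2, KRT15, ITGA6, ITGB4 and DST were listed, and KRT17 was not, like KRT5 and KRT14. Of the listed keratins taken here as markers of simple, columnar epithelium, KRT19, KRT8 and KRT18 stood above KRT15 in Control. They were at 28327, 8863 and 4401 normalised reads per kilobase against 416. KRT7 stood below KRT15, at 95.1. Whether these keratins are confined to columnar cells was not tested, so their levels do not say that the cells are columnar. KRT19, whose gene lies 1088 bases from KRT15, had normalised counts of 62676, 71282 and 64557 in Control and 52163, 51165 and 50234 in ACh, and fell by 0.37 on the log2 scale. Its lowest library was ACh replicate 3, whereas that of KRT15 was ACh replicate 2. Reads shared between type I keratins of similar sequence could be split by the counting, so the value of KRT15 is uncertain.

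Of 26 columnar markers 6 were listed, of which KRT19, KRT8, ELF3 and KRT18 fell (2 of them with equal totals) and KRT7 and AGR2 did not pass both tests. Their summed value, most of it from KRT19 and KRT8, ranged from 143949 to 158588 in Control and from 120827 to 124304 in ACh. The columnar markers KRT20, CDX2, HNF4A and MUC5AC were not listed. Whether this difference takes part in those of the 4 genes was not tested. For squamous differentiation 49 marker symbols were taken, of which LORICRIN and LOR name the same gene. Of these 13 were listed, and 6 rose and 5 fell (6 and 3 with equal totals), or 84.6% against the 63.8% of all listed genes. GRHL1 and SCEL rose by 0.35 and 0.29, and KRT10 and EVPL fell by 0.32 and 0.26, and of these 4 GRHL1 and KRT10 were still called with the GC trend removed. Of 32 stromal, immune and nerve markers 3 were listed, of which EGFL7 fell by 0.28 and COL1A1 and LAPTM5 did not pass both tests. COL1A1 had a log2 fold change of -0.33. LAPTM5, which encodes a lysosomal protein of blood cells, went the other way: its mean was 19.6 ± 1.83 in Control and 39.6 ± 8.56 in ACh (SD, n = 3), a log2 fold change of 0.96 (limma adjusted p = 0.00138), and its adjusted p in the authors' deposited table was 1. The summed value of the 3 genes, most of it from EGFL7, ranged from 1220 to 1291 in Control and from 982 to 1156 in ACh. Whether these values take part in the differences of the 4 genes was not tested.

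**Figure D5:**
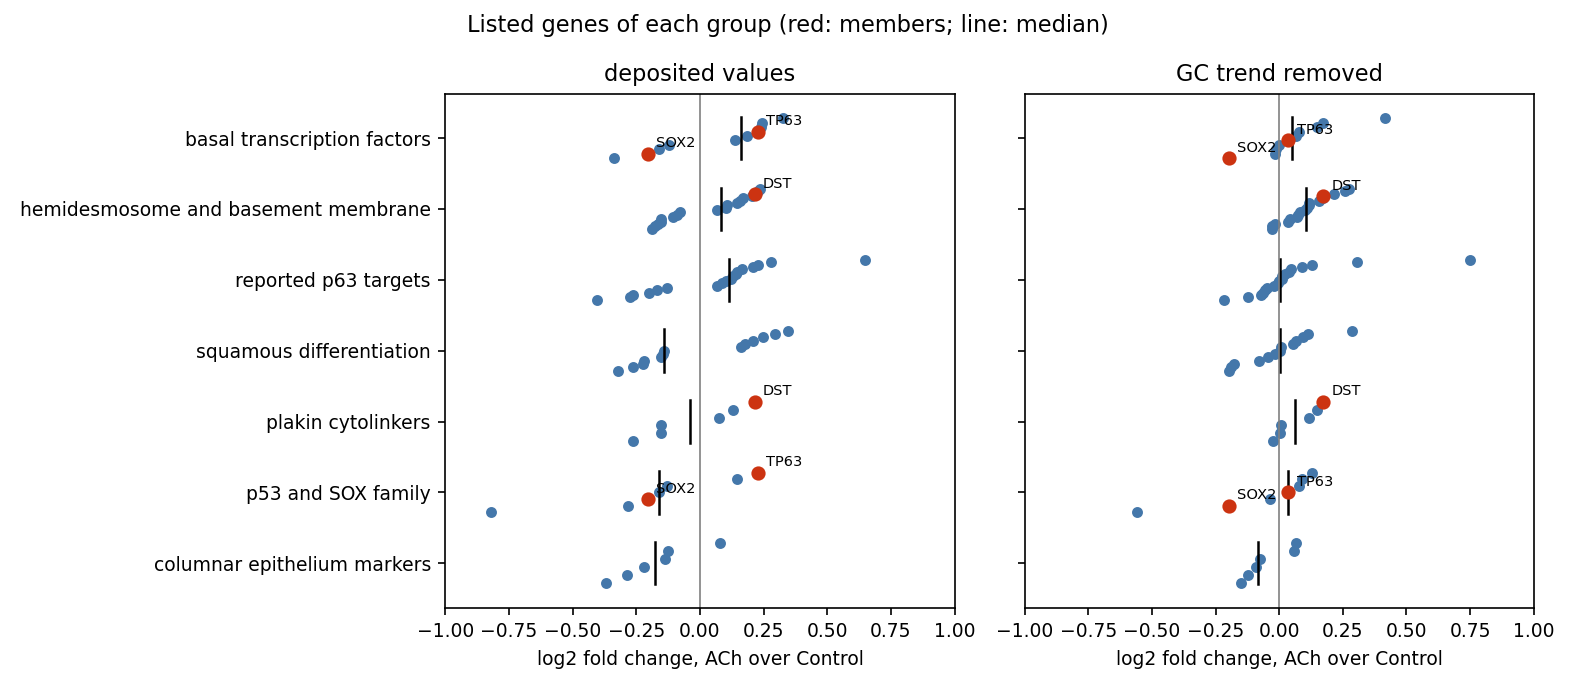
Log2 fold change of ACh over Control (x axis) of every listed gene in 7 gene lists (y axis), from the deposited values and with the GC trend removed; red points are the 4 genes where a list holds them and lines are list medians. In the left panel each list spans 0; in the right panel SOX2 (-0.20) is the lowest basal transcription factor and DST (0.17) stays above 0.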

How the data were processed

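The members and gene lists were chosen with earlier results of these data known. Per the labels' protocols, total RNA was made into libraries with a SMARTer mRNA-seq kit. The organism label is mouse, and the submitters' processing notes list Bowtie 0.12.2 with builds mm8 and mm10, but 4183 of the 4195 gene IDs are human (ENSG). The human build was not given in the sources used here, nor was the counter, and coordinates are those of the file.

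The unit of the deposited values is signal: the authors divided the read counts of each library by one factor, since in every library all values were whole multiples of a single step (tolerance 0.001 steps). Raw counts were not rebuilt and no count model was run, although the design had allowed for one. Per the file headers, the log2 fold changes, p-values and adjusted p-values are the authors' own. Their adjusted p was exactly 1 for 234 low genes, which could not pass both tests.

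Values were tested as log2(value + 1) with limma 3.58.1 (limma-trend, R 4.3.3), group as the only term, all 4195 genes without a filter and Benjamini-Hochberg adjustment at 0.05. The test was checked on simulated data. Fold changes on this scale understate those of low genes. GC content came from GENCODE M21, matching each symbol to its mouse gene (Trp63 for TP63), taking its longest protein-coding transcript, and was found for 3677 genes (87.7%), and its trend was removed per library by local regression with a span of 0.3. Ratios used the same scale. Named genes were the 4 members, up to 2 rises and 2 falls per list, genes of the members' families, the 3 most similar genes per member and neighbours within 1000000 bases; further genes of the lists, such as FOSL1, ITGA6, LAMA3, LAMB3 and COL17A1, were named after their values were seen. A gene of the lists is not reported here. Tables and figures were made with pandas 2.3.3, SciPy 1.17.1, NumPy 2.4.6 and Matplotlib 3.10.9 in Python 3.11.15.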

Additional observations from a re-analysis of the deposited data

How the results depend on the processing

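SOX2 and DST kept direction and call under each alternative run, with log2 fold changes from -0.22 to -0.19 and from 0.19 to 0.24 when 1 library was left out. TP63 ranged from 0.17 to 0.26 and KRT15 from -0.25 to -0.0763 in the same way, and without ACh replicate 2 KRT15 was no longer called. With the GC trend removed, TP63 stood at 0.0355 and KRT15 at 0.0053, with or without the replicate block, and neither was called; the cause was not tested. With GC content and length removed they stood at 0.0240 and -0.0304, and with equal totals KRT15 stood at -0.0911.

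Of the 2677 genes past both tests, 2461 had a GC value, and removal of the GC trend left 329 of these past both tests in the same direction (403 with the replicate block). In the lists it left 2 of 6 basal transcription factors, 4 of 14 hemidesmosome and basement membrane genes (5 with the block), 3 of 12 p63 targets, 4 of 11 differentiation genes, 1 of 4 plakins, 1 of 5 in the p53 and SOX family, 1 of 4 columnar markers, 5 of 39 genes on 3q with a GC value (41 were called), and 0 of 1 basal keratins and 0 of 1 stromal markers by limma and the authors' adjusted p. By limma alone, at an unadjusted or adjusted p under 0.05, 0 basal keratins passed in that setting. In the list of stromal, immune and nerve markers 1 gene passed, LAPTM5 (limma adjusted p = 0.000693), which had not been past both tests before. EGFL7, the gene of that list that had been called, stood at -0.05 (limma adjusted p = 0.654). Equal totals left 3 in the p53 and SOX family, 2 columnar markers and 0 basal keratins. Leaving out 1 library left 2647 to 2668 genes and, for the single basal keratin, 0 to 1. The log2 differences of the ratios became 0.233 for TP63 over SOX2, -0.138 for TP63 over DST, 0.0302 for TP63 over KRT15, -0.371 for SOX2 over DST, -0.203 for SOX2 over KRT15 and 0.169 for DST over KRT15 with the GC trend removed.

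Same-numbered Control and ACh libraries were at most weakly paired: their deviations from the group means correlated at 0.0821, 0.0555 and 0.0471. Between unlike numbers the values ran from -0.0686 to 0.0171, so each library correlated best with its own number. The replicate block lowered the standard error of each of the 4 genes, that of KRT15 from 0.0550 to 0.0409. The replicate block alone changed no call of the 4 genes (TP63 0.227, SOX2 -0.205, DST 0.214, KRT15 -0.171). Count-model tests were not run because raw counts were not rebuilt. GC values came from mouse transcripts, and the depth of the libraries is unknown.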

Other observations

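Around DST, the hemidesmosome and basement membrane genes stood differently once the GC trend was removed. Then 15 of the 18 listed genes were above 0, where 54.4% of all genes with a GC value were, and 8 passed limma as higher, where 7.67% of all genes did. DST is itself among the 15 and among the 8. By limma and the authors' adjusted p in the same direction, 4 genes of the list were higher, against 128 of 3677 genes with a GC value. COL17A1 stood at 0.27, COL4A5 at 0.26, LAMA3 at 0.17, ITGB4 at 0.16, ITGA3 at 0.12 and LAMB3 at 0.10 on the log2 scale, beside DST at 0.17. Of these, ITGB4, ITGA3 and LAMB3 were lower in ACh in the deposited values. The median of the list went from 0.08 to 0.11. The trend was fitted on the genes of the deposited table alone, which were selected for differing between the groups. From 53% to under 57% GC the median log2 fold change of these genes was -0.18. A gene there with a small change of either sign can thus stand above 0 once the trend is removed. These counts therefore do not set the list apart.

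FOSL1 stood at 0.41 with the GC trend removed, against 0.18 in the deposited values, and was with SOX2 one of the 2 basal transcription factors called by limma in that setting. The differentiation genes CSTB (-0.20), S100A14 (-0.19) and KRT10 (-0.18), were called as lower and GRHL1 (0.29) as higher.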
